A study of Mus musculus with 36 samples.

Results

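Smooth muscle contractile genes were followed in the colon of wild-type and Il17rc-deficient mice from untreated tissue to tumors. The list held 34 genes for the proteins that make, anchor and control the contractile apparatus of smooth muscle, and 30 of them were measured, among 17097 genes on the arrays. Each gene was represented by its probe set with the highest mean intensity over all arrays. Tagln and Hspb6 were left out because their probe sets were shared with another gene, and Smtn and Ckb were not analysed here.

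The study put wild-type mice (WT) and mice lacking Il17rc (KO), whose product is part of the receptor that binds the interleukins IL-17A and IL-17F, through a chemical model of colitis-associated colon cancer. The same age, 6 to 8 weeks, is given for the mice of every day. Untreated mice of either genotype, taken at day 0, received neither agent, and all other mice were put on a course of the carcinogen azoxymethane (AOM) and then 3 cycles, each of 5 days of 3% dextran sulfate sodium (DSS) in the drinking water and 14 days of regular water. Mice taken at day 7 or day 15 cannot have completed these cycles. Untreated mice were taken only at day 0, so time and age cannot be told apart from treatment in comparisons with untreated colon. Each genotype gave 4 untreated arrays, 4 at day 7, 4 at day 15 and 6 of tumors at day 63, 36 arrays in all. Colon tissue was minced and homogenized whole, so a lower level can come from fewer muscle cells or from less RNA per muscle cell, and these cannot be told apart. The labels do not say how the layers of the wall were cut or how tumors were separated from them, nor whether the KO lacks Il17rc in all cells, and they do not state that replicates are separate animals, so the p-values here reflect only how far these samples differ among themselves.

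Smooth muscle contracts when calcium entering the cell binds calmodulin and switches on myosin light chain kinase, which phosphorylates the regulatory light chain of myosin. Myosin phosphatase reverses this step, and cyclic GMP relaxes the cell. In the colon these cells form the circular and longitudinal layers of the muscularis externa, the thin muscularis mucosae under the epithelium and the walls of vessels, and many of their genes are controlled by serum response factor (SRF) with its partner myocardin at a DNA element called the CArG box.

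Array medians lay between 14 and 16 intensity units and single values between 4 and 14185. Il17rc stood at 76 to 515 on the WT arrays and at 7 to 15 on the KO arrays, with exceptions: the arrays labelled KO day 7 replicates 1 and 2 read 331 and 44. These labels are in doubt, and counts that rest on KO day 7 are also given without these arrays. Krt5, a keratin of squamous epithelium, was above 100 on 7 arrays. These were replicates 1 and 4 of untreated WT, replicates 1 and 4 of WT day 7, replicates 1 and 2 of KO day 7 and replicate 2 of the KO tumors.

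The CArG box was looked for on both strands in the 250 bases before each listed start of a gene (RefSeq, GRCm38.p6). It was searched in its strict form and in a CArG-like form with 1 G or C among its 6 middle bases. Windows were matched for 28 of the 30 measured genes, and Actg2 and Myh11 were the others. Of these, 9 had more than 1 start in the table, and a gene was counted when any of its windows held a box. A strict box lay in 3 of 28 genes (10.7%), against 204 of 13514 genes tested on the arrays (1.51%). A strict or CArG-like box lay in 8 of 28 (28.6%), against 1296 of 13514 (9.59%). The windows of 4 genes are shown because they hold the strict boxes and the paired elements of the actin gene, and because their genes differed in how they followed the rest of the list. Capitals mark the boxes.
Acta2, chr19:34255374-34255623, minus strand: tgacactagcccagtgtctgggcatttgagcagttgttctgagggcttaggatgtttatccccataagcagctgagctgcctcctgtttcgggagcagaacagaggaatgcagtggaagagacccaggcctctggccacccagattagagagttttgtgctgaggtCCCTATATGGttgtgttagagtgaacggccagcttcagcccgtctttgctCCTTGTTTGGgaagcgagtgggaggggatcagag
Myl9, chr2:156775214-156775463, plus strand: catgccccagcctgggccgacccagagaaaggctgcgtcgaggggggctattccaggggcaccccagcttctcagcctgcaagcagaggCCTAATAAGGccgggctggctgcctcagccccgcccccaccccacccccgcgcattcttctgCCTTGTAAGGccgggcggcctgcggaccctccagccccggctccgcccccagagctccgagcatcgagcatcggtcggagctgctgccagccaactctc
Fhl1, chrX:56779433-56779682, plus strand: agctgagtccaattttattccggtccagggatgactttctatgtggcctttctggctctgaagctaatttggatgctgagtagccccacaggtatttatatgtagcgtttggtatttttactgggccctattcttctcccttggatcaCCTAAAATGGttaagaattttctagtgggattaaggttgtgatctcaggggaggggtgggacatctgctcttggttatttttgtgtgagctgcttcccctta
Ldb3, chr14:34588608-34588857, minus strand: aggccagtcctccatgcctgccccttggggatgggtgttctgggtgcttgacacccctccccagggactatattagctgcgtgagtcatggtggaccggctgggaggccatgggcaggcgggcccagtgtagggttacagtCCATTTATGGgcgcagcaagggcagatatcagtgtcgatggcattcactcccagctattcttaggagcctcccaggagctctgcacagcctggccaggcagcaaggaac
The Acta2 window held CArG-like boxes that began 84 and 34 bases before the start, and the Myl9 window a strict box at 161 and a CArG-like box at 99 bases. Fhl1 and Ldb3 each had a pair of starts with a window. Both genes extend farther upstream than these windows, so any start there was not searched. A strict box began 102 bases before the start of Fhl1 whose window is shown, and the window of its other start held none. In Ldb3 a strict box began 109 bases before the start shown and 35 bases before the other. Jph2, Pcp4, Pdlim3 and Synm held CArG-like boxes. A match shows only that these letters are in the window.

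The list as a whole was highest at day 7 in KO colon and lowest in tumors of either genotype. The mean log2 intensity of the 30 genes was 9.65 ± 0.15 (SD) in untreated WT colon, 9.61 ± 0.53 by day 7 and 8.80 ± 0.44 by day 15, each over 4 arrays, and 8.01 ± 0.54 over the 6 WT tumors. In KO colon it was 9.21 ± 0.06 untreated, 10.07 ± 0.49 by day 7 and 8.66 ± 0.36 by day 15, and 8.05 ± 0.83 over the 6 KO tumors. Untreated arrays lay close together, within 0.33 log2 units in WT and 0.13 in KO, and the treated groups were wider. Of the WT tumors, 5 lay between 7.71 and 7.90 and replicate 6 at 9.09. Among KO tumors, replicate 2 read 6.48 and replicate 1 read 8.93. Tumors of both genotypes lay below the untreated arrays of their genotype without overlap in this mean.

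**Figure D1:**
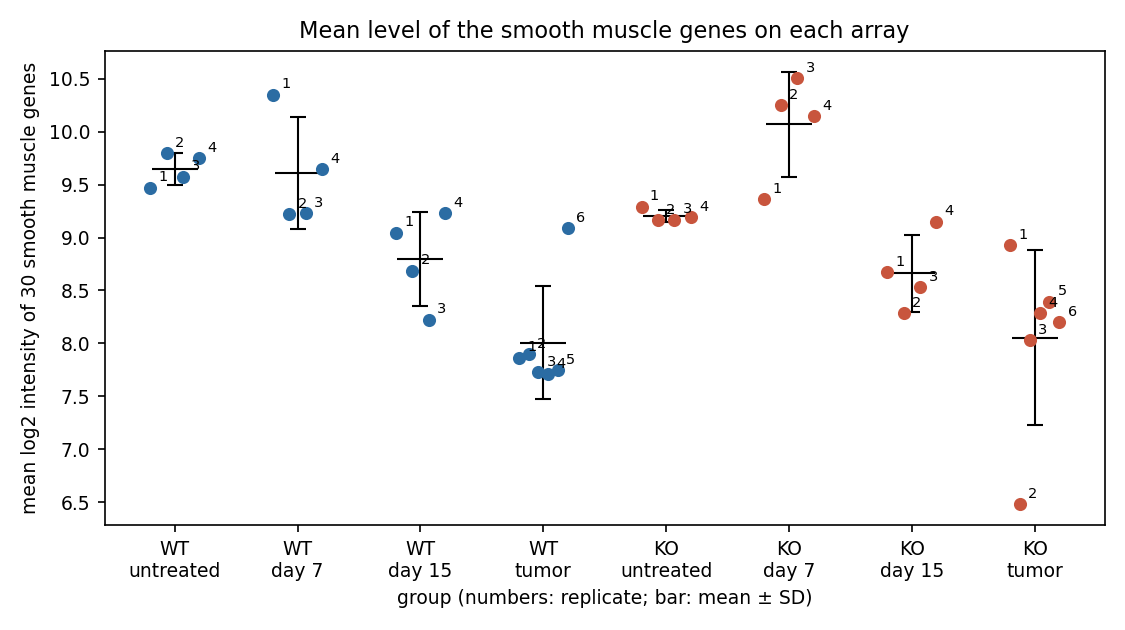
Mean log2 intensity of the 30 smooth muscle genes on each array (y axis) for the 8 groups (x axis), WT in blue and KO in red, with the mean and SD of each group as bars and replicate numbers beside the points. WT tumor replicate 6 at 9.09 and KO tumor replicate 2 at 6.48 stand apart from the other tumors.

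WT tumors had lower levels of nearly the whole contractile apparatus than untreated WT colon. With limma, on log2(intensity + 1), 26 of 30 genes fell past an adjusted p of 0.05 (Benjamini-Hochberg over all genes) and none rose. The background was that 10.2% of all genes tested fell in this comparison. The median log2 difference was -1.62 over the list and 0.02 over all genes, and the tumor arrays lay wholly below the untreated ones for 21 of 30 genes, against 6.62% of all genes. Log2 differences below carry the standard error (SE) of the limma model. By role, 6 of 7 thin filament genes fell, 5 of 5 genes of myosin and its switch, 7 of 7 of calcium, cGMP and membrane signals, and 8 of 10 of intermediate filaments and anchors, but not the chaperone gene Hspb8.

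Among thin filament genes, the actins changed unequally. Acta2, the smooth muscle alpha actin also made by pericytes and myofibroblasts, read 6485, 7123, 7100 and 6706 on the untreated WT arrays, and 2983 at the lowest, 3527 at the median and 6483 at the highest of the 6 WT tumors. Only replicate 6 came near the untreated arrays, 2 units under the lowest of them, and after normalization the groups overlapped. The log2 difference was -0.81 ± 0.26 (adjusted p = 0.0213, limma). Actg2, the gamma actin typical of visceral smooth muscle, read 3325, 3966, 3573 and 3538 untreated and 583, 859 and 3220 in tumors (lowest, median, highest). Again replicate 6 was the highest and the others lay at 1073 or below, with no overlap, and the log2 difference was -1.81 ± 0.46 (adjusted p = 0.00466). The transcripts of these actins are near-identical in their coding parts, so how cleanly the probe sets separate them is uncertain.

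The log2 ratio of Actg2 to Acta2 averaged -0.90 ± 0.07 (SD, n = 4) in untreated WT colon and -1.90 ± 0.58 (n = 6) in WT tumors, and 6 of 6 tumors lay below all untreated arrays. In KO colon the same ratio averaged -1.01 ± 0.15 (n = 4) and -2.13 ± 0.75 (n = 6), with 5 of 6 tumors below. This ratio, and the others below, were picked after the values were seen and are given without a test. The ratio of Myh11 to Acta2 averaged -1.29 ± 0.33 untreated and -3.02 ± 0.54 in tumors of WT mice (n = 4 and 6), again with 6 of 6 tumors below.

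Calponin, encoded by Cnn1, binds actin and restrains myosin. It read 2360, 3407, 2831 and 2682 in untreated WT colon and 465, 640 and 2569 in WT tumors. Replicate 6, at 2569, lay among the untreated arrays, and the other tumors at 735 or below. The log2 difference, -1.86 ± 0.47 (adjusted p = 0.00433, limma), was the lowest of the thin filament genes. The tropomyosins, which lie along the actin filament, also differed in extent: Tpm2 fell by 1.50 ± 0.32 and Tpm1 fell by 0.92 ± 0.21 on the log2 scale. Lmod1, a leiomodin that starts new actin filaments, fell by 1.02 ± 0.23. Cald1, encoding the actin-binding caldesmon, did not pass the test. It read 1756, 2665, 2208 and 2324 untreated and 989, 1242 and 2195 in tumors, with a log2 difference of -0.74 ± 0.33 (adjusted p = 0.104, limma). Its next brightest probe sets gave -0.89 and -1.15 in a fit of all probe sets, close to the threshold (adjusted p = 0.0794 and 0.0504, limma). Its dim ones gave -0.23 and 0.09.

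Every gene of myosin and its switch fell in WT tumors. Myh11, the myosin heavy chain of smooth muscle, read 1991, 3357, 2735 and 3318 untreated and 271, 409.5 and 1419 in tumors. No tumor reached the untreated arrays, and 5 of 6 lay at 435 or below. The log2 difference was -2.54 ± 0.43, or 5.80-fold lower (adjusted p = 5.29e-05, limma). Mylk, the kinase that switches myosin on, read 3760, 4074, 3675 and 4589 against 614, 886 and 2442 and fell by 1.98 ± 0.41. Its substrate, the light chain Myl9, read 2969, 4749, 4392 and 4212 against 821, 1240.5 and 2874 and fell by 1.60 ± 0.40. For both genes the highest tumor, replicate 6, lay below the lowest untreated array. Ppp1r12b, a targeting subunit of myosin phosphatase, fell by 2.17 ± 0.42. Ppp1r14a, an inhibitor of that phosphatase and the least changed gene of this role, read 167, 337, 237 and 294 against 41, 87 and 173, overlapping at replicate 6, with a log2 difference of -1.59 ± 0.42 (adjusted p = 0.00607, limma).

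Pcp4, which speeds the exchange of calcium on calmodulin, had the largest fall of the list. It read 783, 484, 938 and 1007 in untreated WT colon and 28, 42 and 96 in WT tumors, so that even the brightest tumor was well under the dimmest untreated array. The log2 difference was -4.09 ± 0.54, or 17.1-fold lower (adjusted p = 1.76e-06, limma). Pcp4 is also expressed by neurons. Casq2, the calcium store protein calsequestrin, read 102, 144, 100 and 138 against 17, 24.5 and 41 and fell by 2.20 ± 0.30 (adjusted p = 2.87e-06, limma), again without overlap. Jph2, which ties the calcium store to the cell membrane, fell by 1.95 ± 0.33.

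In the cGMP branch, the kinase Prkg1 fell by 1.32 ± 0.36 and its substrate at the calcium store, Mrvi1, fell by 1.64 ± 0.38. Cav1, the coat protein of caveolae also abundant in endothelium and fat, read 1441, 1965, 1237 and 1645 untreated and 308, 402.5 and 1153 in tumors. The groups did not overlap, and Cav1 fell by 1.71 ± 0.40 on the log2 scale. Kcnmb1, the beta subunit of the calcium-activated potassium channel, was dim, at 24, 48, 25 and 30 untreated against 10, 13 and 24 in tumors. Its log2 difference of -1.05 ± 0.30 (adjusted p = 0.0112, limma) was the smallest of this role and depends on the added constant of 1 at such intensities.

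Intermediate filaments and anchors fell as well, except for a pair of PDZ-LIM proteins. Des, the intermediate filament protein desmin, read 1740, 1967, 1537 and 1793 in untreated WT colon and 191, 305.5 and 1352 in WT tumors, and fell by 2.26 ± 0.48. Synm, its partner synemin, read 1450, 2110, 1753 and 1935 against 181, 248.5 and 750 and fell by 2.68 ± 0.43 (adjusted p = 2.82e-05, limma), the most of this role. Its other probe set gave -3.06. Flna, the actin cross-linker filamin A found in many cell types, read 1031, 1157, 757 and 1126 against 229, 344.5 and 665 and fell by 1.51 ± 0.33. For these 3 genes the tumors lay below the untreated arrays without overlap.

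The adhesion plaque genes Synpo2 (-2.36 ± 0.48) and Pgm5 (-1.98 ± 0.50) fell, and so did the LIM protein genes Csrp1 (-1.20 ± 0.30) and Fhl1 (-1.45 ± 0.25). Pdlim3, Pdlim7 and Ldb3 encode PDZ-LIM proteins that bind actin and alpha-actinin. Pdlim3 fell by 2.27 ± 0.43, but Pdlim7 read 196, 176, 135 and 186 untreated and 122, 179.5 and 206 in tumors, with a log2 difference of -0.02 ± 0.28 (95% interval from -0.59 to 0.56). Its other, dimmer probe set gave -0.80 and did not pass the test. Ldb3 read 105, 234, 195 and 142 against 124, 132 and 167, a difference of -0.22 ± 0.23 (adjusted p = 0.563, limma). Hspb8, a small heat shock protein, read 292, 369, 257 and 357 against 139, 160 and 266 with a difference of -0.89 ± 0.40 (adjusted p = 0.106, limma). Its other, dimmer probe sets gave -0.55 and -1.21 and passed in a fit of all probe sets (adjusted p = 0.0373 and 0.0372, limma).

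**Figure D2:**
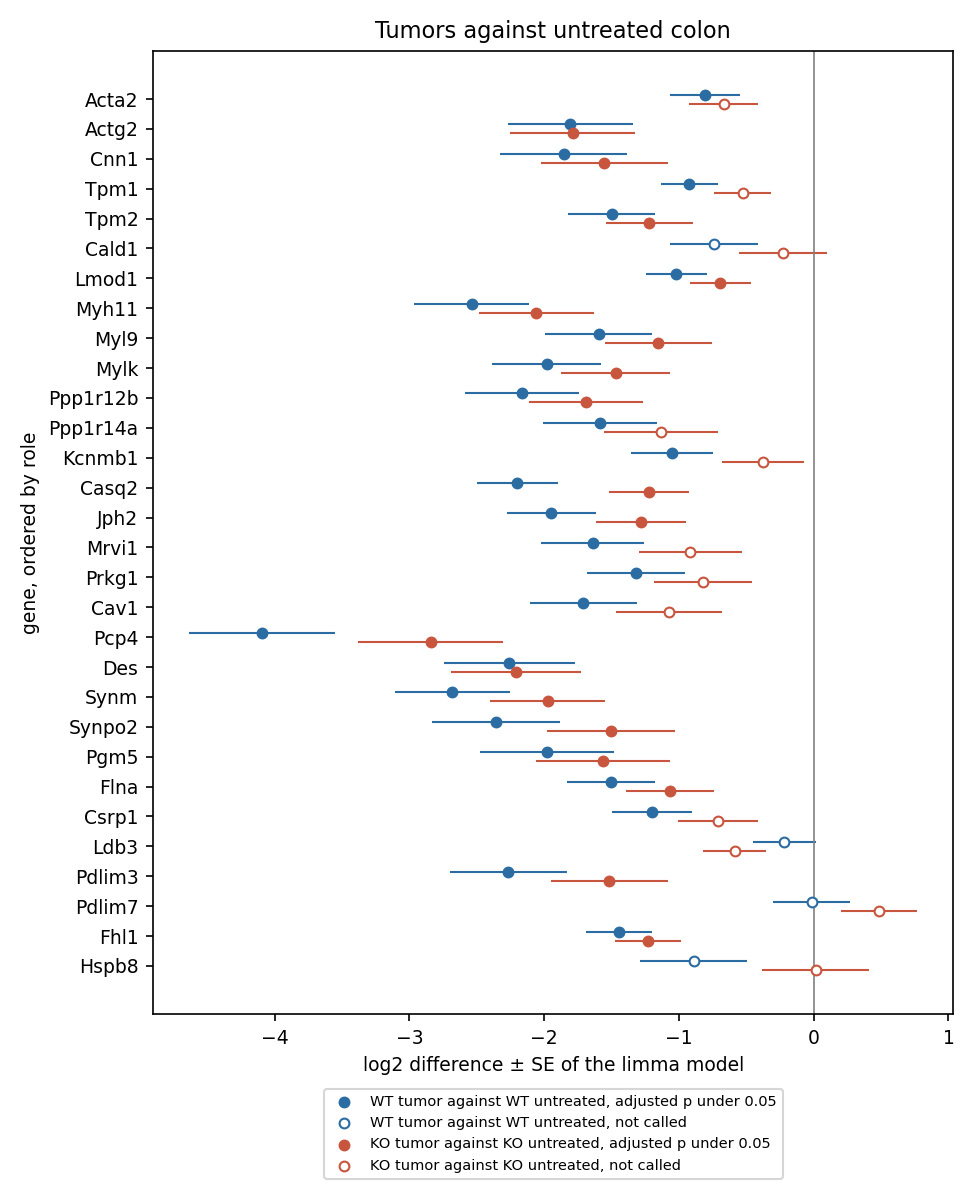
Log2 difference between tumors and untreated colon with the SE of the limma model (x axis) for the 30 genes ordered by role (y axis), WT in blue and KO in red, with filled points for an adjusted p under 0.05. Pcp4 lies farthest left in both genotypes, and Pdlim7 lies at -0.02 in WT and 0.48 in KO.

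KO tumors showed the same direction for 28 of 30 genes, with fewer calls. Of 30 genes, 18 fell and none rose in KO tumors against untreated KO colon, where 9.92% of all genes fell. The median log2 difference was -1.19, and tumors lay wholly below the untreated arrays for 22 genes, against 9.58% of all genes. The count was 4 of 7 for the thin filament, 4 of 5 for myosin and its switch, 3 of 7 for calcium, cGMP and membrane signals, and 7 of 10 for intermediate filaments and anchors. The log2 difference was -2.84 ± 0.54 for Pcp4, -2.21 ± 0.48 for Des, -2.06 ± 0.43 for Myh11 and -1.97 ± 0.43 for Synm, all of which passed. Actg2 fell by 1.79 ± 0.46 and Acta2 gave -0.67 ± 0.26 (adjusted p = 0.0629, limma). Hspb8 and Pdlim7, which did not pass in either genotype by the probe sets used, gave 0.01 ± 0.40 and 0.48 ± 0.28. Pdlim7 read 154 to 217 in KO tumors and 118 to 144 in untreated KO colon, so its tumors lay wholly above. Among markers of other cells, 4 of 10 epithelial markers fell and 2 rose in KO tumors, and their summed intensity was 37072 to 45508 against 47593 to 51898 untreated. Of the markers of interstitial cells of Cajal 1 of 3 fell, with sums of 827 to 1466 against 1470 to 1857, and of the skeletal muscle markers 2 of 11, with sums of 166 to 200 against 197 to 273. Rises were seen for 1 of 4 pericyte markers (sums of 432 to 2809 against 528 to 787) and 1 of 6 endothelial markers (272 to 766 against 213 to 288). None of 5 leukocyte, 8 neuron, 8 fibroblast, 4 glial and 11 squamous markers passed, and leukocyte and neuron sums were 718 to 3794 and 149 to 988 against 1084 to 3158 and 703 to 878. The part of these markers in the result was not tested.

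On the arrays, Myh11 read 2260, 1963, 2036 and 1973 in untreated KO colon and 117, 501 and 1667 in KO tumors, where replicate 1 was the highest and the other tumors lay at 563 or below. Actg2 read 2983, 2619, 3096 and 3469 untreated and 155, 937.5 and 2507 in tumors. Acta2 read 5863, 5946, 5859 and 6152 untreated and 1300, 4541 and 5236 in tumors. Replicate 2 was the lowest KO tumor for all 3 genes, and no tumor overlapped the untreated arrays. Pcp4 read 385, 268, 453 and 568 untreated and 26, 47 and 226 in tumors, with replicate 1 the highest.

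Single tumors moved these counts. Without WT tumor replicate 6, 27 genes fell in WT tumors, with a median of -1.86, while 24.2% of all genes passed in either direction. Without KO tumor replicate 2, 14 genes fell in KO tumors (median -0.87), and without KO tumor replicate 1, 23 fell (median -1.31). In these fits 19.2% and 20.7% of all genes passed. Leaving out the 7 arrays with Krt5 above 100 left 26 genes lower in WT and 18 in KO tumors, with medians of -1.72 and -0.87.

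No gene separated tumors of the 2 genotypes past the threshold. None of 30 genes passed the test between KO and WT tumors with limma and 0 had an unadjusted p under 0.05, where 0.0526% of all genes passed. Log2 differences ran from -0.36 for Des to 0.33 for Casq2 with a median of 0.06. The intervals are wide: that of Pcp4 ran from -0.68 to 1.28, and that of Des from -1.24 to 0.52, so these data do not show that the genotypes were alike. The genotype difference in the change from untreated to tumor passed for 0 of 30 genes (0.784% of all genes), with 1 at an unadjusted p under 0.05, Casq2 at 0.98 ± 0.42 (adjusted p = 0.519, limma).

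Untreated KO colon read lower than untreated WT colon for 29 of 30 genes, with a median log2 difference of -0.43, but none passed the test and 0 had an unadjusted p under 0.05. In this comparison 2.28% of all genes passed. The arrays did not overlap for 17 genes, all lower in KO, against 4.22% of all genes. Synm read 1171, 1198, 1085 and 1122 in untreated KO colon, below all 4 untreated WT arrays, with a log2 difference of -0.67 ± 0.47. Des read 1419, 1243, 1387 and 1254, also below all untreated WT arrays, with -0.41 ± 0.53. Casq2 came closest to the threshold, with -0.65 ± 0.33 (adjusted p = 0.41, limma). Ldb3 alone gave a positive value, 0.33 ± 0.26. In a fit of only these 2 groups, 10 genes passed, all lower in KO, with 2.74% of all genes passing in that fit. Beside this, 3 of 5 leukocyte markers were higher in untreated KO colon, with summed intensities of 1084 to 3158 against 212 to 678 in untreated WT colon, and their part in the result was not tested.

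At day 7 the genotypes gave different counts. In WT colon no gene passed against untreated tissue, in either direction, and 0 had an unadjusted p under 0.05, where 1.66% of all genes passed. The median difference was -0.03 and the 4 arrays were spread: Pcp4 read 2156, 189, 150 and 741, so that replicate 1 was above and replicates 2 and 3 below all untreated WT arrays. In KO colon 7 of 30 genes rose against untreated KO colon and none fell, where 5.64% of all genes rose. The median was 0.89, and the arrays lay wholly above the untreated ones for 16 genes, against 10.9% of all genes.

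The genes that rose in KO colon at day 7 included the calcium genes Pcp4 (1.74 ± 0.59), Jph2 (1.34 ± 0.36) and Casq2 (1.22 ± 0.33). Flna rose by 1.10 ± 0.36, Cald1 by 1.09 ± 0.36, Pdlim7 by 1.04 ± 0.31 and Lmod1 by 0.87 ± 0.25. No gene of myosin and its switch passed. Pcp4 read 647, 1649, 2087 and 1231, all above untreated KO colon, and Myh11 read 2573, 3604, 4503 and 3355, also all above it, with a difference of 0.80 ± 0.47 (adjusted p = 0.303, limma). Acta2 read 5976, 8224, 8898 and 8140, and Actg2 read 2488, 4824, 5379 and 4952. For these genes the array labelled replicate 1, which held high Il17rc, was the lowest of the 4. Leukocyte markers moved the other way at the same time, with 5 of 5 lower and sums of 157 to 545 against 1084 to 3158 untreated, and 3 of 8 enteric neuron markers rose, with sums of 745 to 1615 against 703 to 878. Their part in the result was not tested.

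This count rested on few arrays. Without replicate 1 of KO day 7, 12 genes rose (median 1.13) while 13.3% of all genes passed in either direction, and without replicates 1 and 2, 5 rose (median 1.16) while 8.94% passed. Without replicate 2 alone 1 rose, without replicate 3 none, and without replicate 4, 3, while 8.21%, 7.7% and 9.02% of all genes passed. Leaving out untreated KO replicates 1, 2, 3 or 4 left 3, 3, 4 and 2 genes, while 8.57% to 9.38% of all genes passed. Each of the 7 calls was lost in at least 1 of the alternatives. Scaling mattered too, since 46.1% of all called genes were higher after quantile normalization, 24.3% after centring on the median and 33.5% without normalization, and 3 members rose in each of the latter.

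The genotype difference in the change from untreated to day 7 passed for 0 of 30 genes, where 2.37% of all genes passed. An unadjusted p under 0.05 was reached by 7 genes, and the median difference was 0.94. Pcp4 gave 2.42 ± 0.83 (adjusted p = 0.127, limma) and Casq2 1.29 ± 0.46 (adjusted p = 0.149, limma). KO day 7 against WT day 7 gave 0 calls (0.298% of all genes), 1 gene at an unadjusted p under 0.05, Pcp4 at 1.47 ± 0.59, and a median of 0.50. Without replicates 1 and 2 of KO day 7 both counts were again 0, with medians of 1.14 for the difference in change and 0.70 for KO against WT, and 1.71% and 0.433% of all genes passed. Without WT day 7 replicate 1, 2 genes passed the test of the difference in change and 1 that of KO against WT at day 7, where 5.26% and 3.09% of all genes passed, so these counts were near the share over all genes. The day 7, day 15 and tumor comparisons of a genotype share its untreated arrays.

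At day 15 the list was lower in both genotypes, and few genes passed. In WT colon 2 of 30 genes fell against untreated tissue, where 1.28% of all genes fell. All 30 differences were negative, with a median of -0.78. The arrays lay wholly below the untreated ones for 15 genes, against 3.56% of all genes, and 14 had an unadjusted p under 0.05. Pcp4 read 214, 71, 69 and 70 and fell by 3.05 ± 0.59 (adjusted p = 0.00302, limma). Casq2 read 65, 44, 39 and 35 and fell by 1.42 ± 0.33 (adjusted p = 0.0121, limma). Both lay below every untreated WT array, while Acta2, at 5649, 5110, 4096 and 7537, overlapped them. Leukocyte markers rose for 5 of 5 genes, with sums of 1731 to 3774 against 212 to 678, and 1 of 11 skeletal muscle markers fell, while 0 of 8 fibroblast, 0 of 8 neuron and 0 of 4 pericyte markers passed.

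In KO colon at day 15 no gene passed against untreated tissue (0.813% of all genes), and 6 had an unadjusted p under 0.05. The median was -0.49, and Pcp4, at 124, 105, 132 and 77, gave -2.01 ± 0.59 (adjusted p = 0.0929, limma). KO and WT colon at day 15 gave 0 calls (0.222% of all genes), 0 genes at an unadjusted p under 0.05 and a median of -0.18. The genotype difference in the change to day 15 gave 0 calls (0.0819%), 0 genes at an unadjusted p under 0.05 and a median of 0.26. Replicate 4 was the highest of the 4 arrays for the mean of the list in both genotypes, at 9.23 in WT and 9.15 in KO.

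From day 7 to day 15 the list fell in KO colon. Of 30 genes, 23 fell and none rose, where 12.8% of all genes fell, with a median of -1.30 and no overlap for 16 genes (11.9% of all genes). The largest log2 differences were -3.75 ± 0.59 for Pcp4, -2.29 ± 0.53 for Des, -2.17 ± 0.33 for Casq2, -2.12 ± 0.47 for Synm and -2.11 ± 0.36 for Jph2. By role, 5 of 7 thin filament genes fell, 3 of 5 of myosin and its switch, 5 of 7 of calcium, cGMP and membrane signals, 9 of 10 of intermediate filaments and anchors, and the chaperone gene. Over the same interval 5 of 5 leukocyte and 5 of 6 endothelial markers rose, the former with sums of 157 to 545 at day 7 and 1854 to 11745 at day 15, and so did 1 of 8 fibroblast and 1 of 4 pericyte markers. Falls were seen for 1 of 8 neuron, 1 of 4 glial, 2 of 10 epithelial and 1 of 11 squamous markers, and of 11 skeletal muscle markers 3 fell and 1 rose. The part of these markers in the result was not tested. Without the KO day 7 arrays labelled replicates 1 and 2, 21 genes fell (median -1.55) while 19% of all genes passed in either direction. Without replicate 1 alone 24 fell while 24.9% passed. The count dropped to 15 without replicate 2 and to 13 without replicate 3 of KO day 7, and to 15 without replicate 2 of KO day 15. In these fits 19.6%, 20.4% and 24.9% of all genes passed. In WT colon 3 genes fell from day 7 to day 15, Pcp4, Casq2 and Jph2, where 1.13% of all genes fell, and the median was -0.75. No gene fell without WT day 7 replicate 1 or without replicate 4, and 1 without WT day 15 replicate 2 or 4. In these fits 1.37% to 2.5% of all genes passed. Leukocyte markers rose here too, for 5 of 5 genes with sums of 314 to 1158 at day 7 and 1731 to 3774 at day 15. Of the others, 1 of 8 fibroblast and 1 of 6 endothelial markers rose, 1 of 10 epithelial and 1 of 11 skeletal muscle markers fell, and their part in the result was not tested.

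From day 15 to tumors, 7 of 30 genes fell in WT mice, where 7.77% of all genes fell, and the median was -0.80. Fhl1, which was still at 3514, 2839, 3971 and 3130 at day 15, read 1127, 1285.5 and 2924 in tumors and fell by 1.15 ± 0.25 (adjusted p = 0.000897, limma). Enteric neuron markers fell over the same interval for 6 of 8 genes, with a median of -1.16 and sums of 895 to 2898 at day 15 and 263 to 1043 in tumors. Glial markers fell for 2 of 4 genes and those of interstitial cells of Cajal for 1 of 3, with sums of 782 to 1470 and 1220 to 1799 at day 15 and of 875 to 1055 and 918 to 1357 in tumors, and 2 of 10 epithelial markers fell and 2 rose. The part of these markers in the result was not tested. Among the members, Lmod1 fell by 0.83 ± 0.23, and Mrvi1, Ppp1r12b, Ppp1r14a, Cav1 and Synpo2 also fell. This count was 17 without WT tumor replicate 6, 13 without WT day 15 replicate 3, and 2 to 4 without WT tumor replicates 3, 4 or 5 or WT day 15 replicates 1 or 4. Without WT day 15 replicate 4, 1 of the 4 genes rose. Of all genes 22.5% and 17.8% passed in the first fits and 13.9% to 19.7% in the others. In KO mice Fhl1 alone fell, with a log2 difference of -0.86 ± 0.25 (adjusted p = 0.0166, limma), where 6.1% of all genes fell, and the median was -0.57. Among the markers 1 of 10 epithelial genes rose and 0 of 8 neuron markers passed, with neuron sums of 659 to 2207 at day 15 and 149 to 988 in tumors. Without KO tumor replicate 1, 7 genes fell, and without KO day 15 replicate 3 none did. Without KO day 15 replicate 4, 1 fell and 1 rose. In these fits 16.4%, 11.7% and 13.9% of all genes passed.

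**Figure D3:**
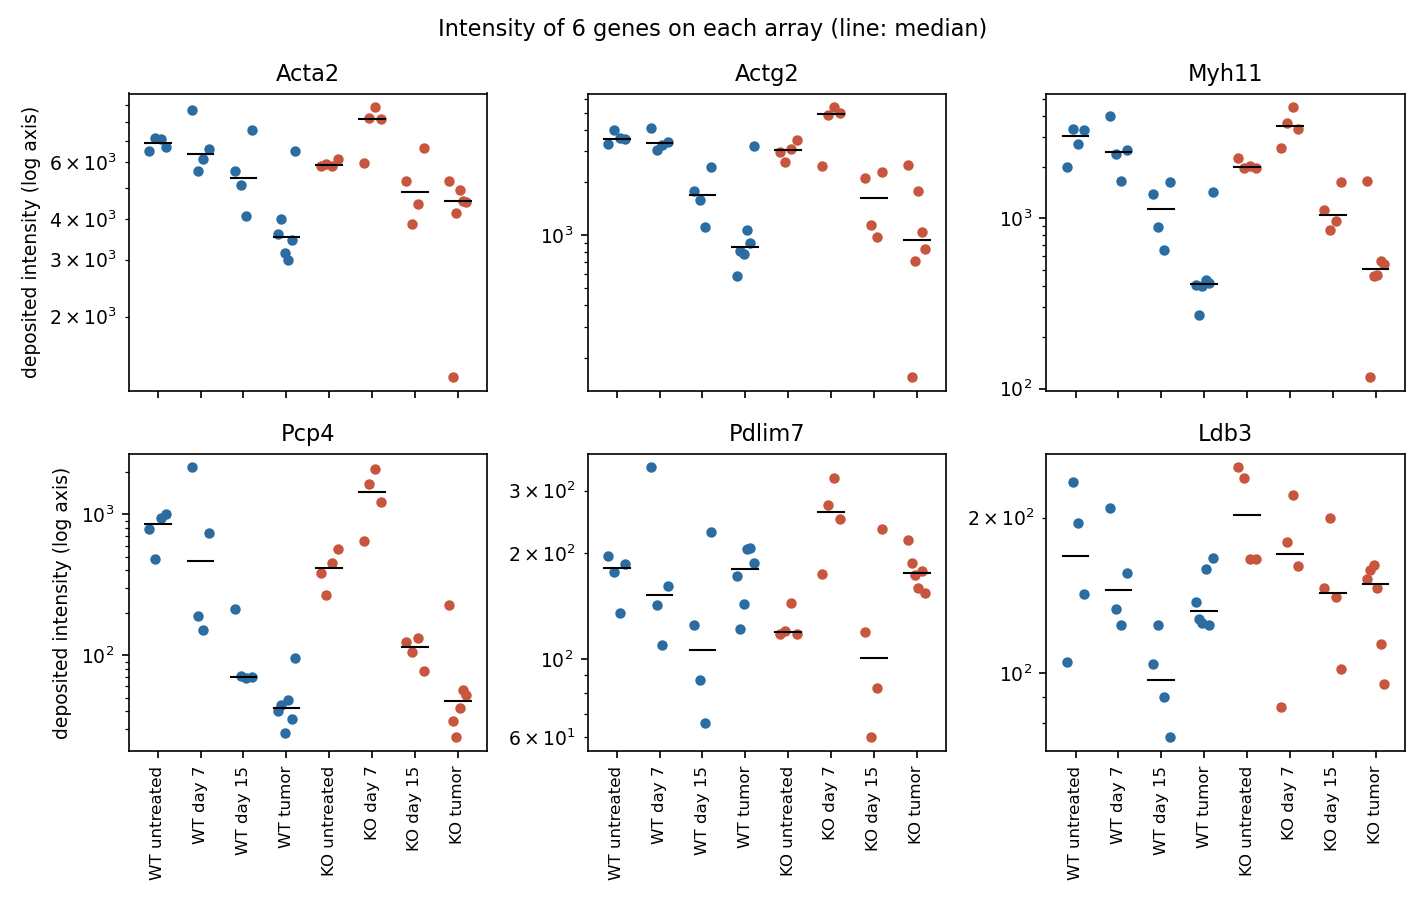
Deposited intensity on each array (log y axis) of Acta2, Actg2, Myh11, Pcp4, Pdlim7 and Ldb3 in the 8 groups (x axis), WT in blue and KO in red, with the group median as a line. Pcp4 falls from 484 to 1007 in untreated WT colon to 28 to 96 in WT tumors, while Pdlim7 stays between 122 and 206 in WT tumors against 135 to 196 untreated.

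Across the 36 arrays 28 of the 30 genes followed one another. The Pearson correlation of a gene with the mean of the other members was between 0.76 (Hspb8) and 0.989 (Ppp1r12b and Pdlim3). Ldb3, with a strict CArG box in its window, gave 0.295 and Pdlim7 gave 0.375. After subtracting the group means, Ldb3 gave 0.093 and Pdlim7 0.497. Pcp4 and Casq2 gave 0.871 and 0.872 over all arrays but 0.556 and 0.52 within groups. Arrays share tissue, group and preparation, so these correlations are a description. Unequal change also showed in the ratio of Pdlim3 to Pdlim7, whose log2 value averaged 2.98 ± 0.30 (n = 4) in untreated WT colon and 0.73 ± 0.78 (n = 6) in WT tumors.

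**Figure D4:**
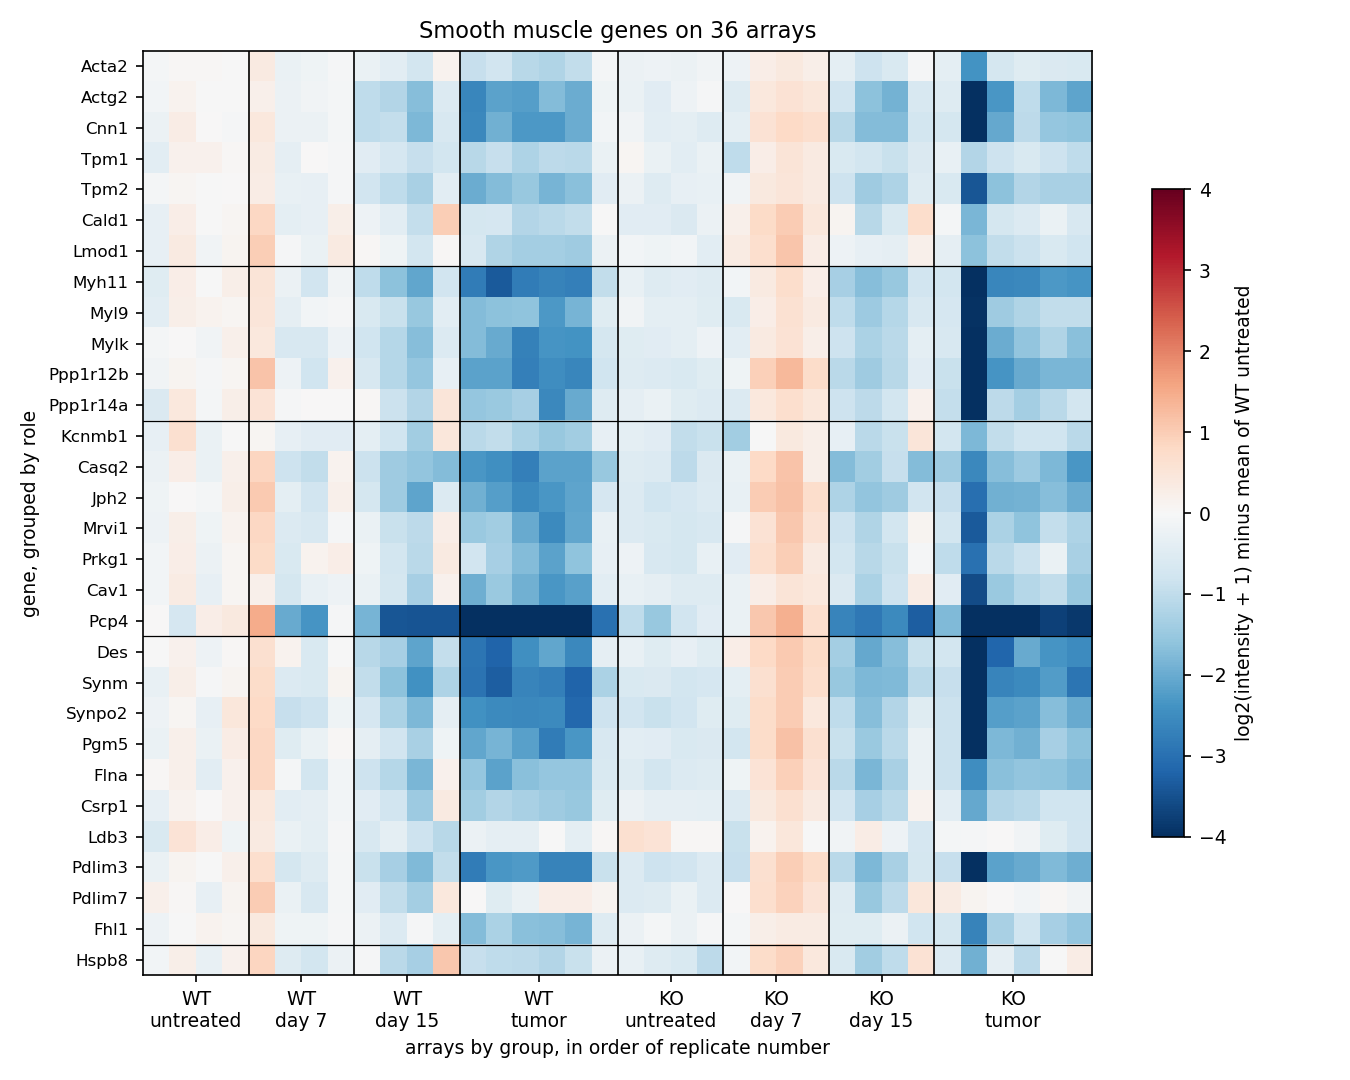
Log2(intensity + 1) of 30 genes (rows, grouped by role) on 36 arrays (columns, by group and replicate number) minus the mean of untreated WT colon, with blue for lower and red for higher and the colours ending at -4 and 4. Most genes are red on WT day 7 replicate 1 and KO day 7 replicates 2 to 4 and blue in tumors, palest in WT tumor replicate 6, and the rows of Ldb3 and Pdlim7 stay near white in tumors.

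The 10 genes outside the list whose levels correlated most with the mean of its members over the 36 arrays were Tns1 (0.977), Lims2 (0.971), Stum (0.968), Aoc3 (0.967), Rbpms2 (0.966), Tspan2 (0.964), Rims1 (0.964), Art3 (0.962), Slc24a3 (0.961) and Sspn (0.96). Tns1 encodes the adhesion protein tensin and Sspn a partner of dystrophin. In WT tumors their log2 differences from untreated colon ran from -2.38 for Art3 to -1.70 for Aoc3.

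Other genes of contraction and its control moved less uniformly. Of 31 measured genes, 10 fell and 3 rose in WT tumors, with a median log2 difference of -0.19, where 10.2% of all genes fell. Over all genes 55.2% of those called were higher, so rises made up a smaller part of the calls on this list. Srf fell by 0.98 ± 0.16 and its partner Myocd fell by 1.17 ± 0.32. Phospholamban, encoded by Pln, which restrains the calcium pump of the store, fell by 1.51 ± 0.33, the dystrophin gene Dmd fell by 1.07 ± 0.26, its partner dystrobrevin (Dtna) fell by 1.03 ± 0.21 and the integrin gene Itga8 fell by 1.07 ± 0.19. Cnn3, the calponin of non-muscle cells, rose by 1.16 ± 0.19, and the tropomyosins Tpm3 and Tpm4, which non-muscle cells also make, rose by 0.43 ± 0.08 and 0.53 ± 0.18. The actins and myosin of all cells, Actb, Actg1 and Myh9, gave 0.07, 0.00 and 0.09 and did not pass. In KO tumors 3 fell and 2 rose, where 9.92% of all genes fell, so the falls were near that share. Of all genes called there 52.2% were higher, so rises were again no larger a part of the calls on this list. Srf fell by 0.76 ± 0.16, Cnn3 rose by 0.78 ± 0.19, and Myocd gave -0.73 ± 0.32 (adjusted p = 0.104, limma). At day 7 in KO colon 10 rose and 2 fell, where 5.64% of all genes rose. Pln was higher by 1.57 ± 0.36 and Myocd by 1.27 ± 0.35. From day 7 to day 15 in KO colon 13 fell and 3 rose, where 12.8% of all genes fell. Without the KO day 7 arrays labelled replicates 1 and 2, 10 rose and 0 fell at day 7, and 14 fell and 3 rose to day 15. In these fits 8.94% and 19% of all genes passed in either direction.

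Markers of other cells of the colon wall moved with part of this pattern, and their part in the results was not tested. Enteric neuron markers fell in WT tumors for 4 of 8 genes, among them Stmn2 (-1.26 ± 0.37), and their summed intensity ran from 635 to 1504 in untreated WT colon and from 263 to 1043 in WT tumors. Over the 36 arrays the summed intensity of the neuron list correlated with the member mean at 0.735, and at 0.777 within groups. Vip weighed most in the neuron sums, with a mean log2 of 8.99 in untreated WT colon against 7.03 or less for the others. In WT tumors Vip gave -1.04 ± 0.61 and did not pass (adjusted p = 0.231, limma). Of the markers of interstitial cells of Cajal, the pacemaker cells of the muscle layers, 1 of 3 fell, Ano1 (-0.92 ± 0.21), with sums of 1504 to 2051 and 918 to 1357. Ano1 held most of these sums, with a mean log2 of 10.77 in untreated WT colon against 5.90 for Kit and 5.51 for Etv1. Kit gave 0.10 ± 0.29 in WT tumors. Erbb3 likewise held most of the glial sums, at 10.32 in untreated WT colon against 4.70 or less for the other glial markers. On day 15 replicate 4 the glial sums (782 in WT, 437 in KO) were the lowest of their groups. The epithelial sums there (35910 and 34307) were also the lowest, and the neuron sums (2898 and 2207) the highest. Which cells gave the Erbb3 signal was not tested. Leukocyte markers rose for 5 of 5 genes, with sums of 212 to 678 and 1087 to 3821. Epithelial sums were 36383 to 47798 and 39890 to 43877, with Krt18 and Cdx2 higher among 10 genes, and 2 of 11 squamous markers fell. In WT tumors none of 8 fibroblast, 4 pericyte, 6 endothelial and 4 glial markers passed. Fibroblast sums ran from 6258 to 10613 in untreated WT colon and from 4985 to 13715 in WT tumors, and correlated with the member mean at 0.245 over all arrays and 0.783 within groups. Within groups the other cell lists gave 0.606 for pericytes, 0.474 for endothelium, 0.469 for leukocytes and 0.361 for skeletal muscle. Those of interstitial cells of Cajal, glia, epithelium and squamous epithelium gave -0.248, -0.066, -0.175 and -0.141. Over all 36 arrays these gave 0.539, 0.59, 0.293 and 0.186 in the same order. Skeletal muscle gave 0.702 over all arrays, pericytes -0.062, endothelium -0.309 and leukocytes -0.499. The lowest deposited intensity was 4, so no marker could read 0. Some markers lay below the array medians, among them Gfap, S100b and Col1a2, with mean log2 values of 3.41, 3.46 and 3.61 in WT tumors.

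KO tumor replicate 2, which stood apart for the smooth muscle genes, also stood apart for fibroblast and neuron markers. WT tumor replicate 6, which stood apart for the smooth muscle genes too, held the highest fibroblast sum (13715) and neuron sum (1043) of the WT tumors. The other WT tumors were spread from 4985 to 9967 and from 263 to 723, so replicate 6 was only the highest of a graded series there. KO tumor replicate 2 held the lowest of the KO tumors, 3073 and 149, where the other KO tumors lay between 9199 and 11921 and between 682 and 988. KO tumor replicate 1, the highest KO tumor for the list, was the highest for neither sum, at 11504 and 682. Replicate 4 of day 15, the highest array of its group for the list, held fibroblast sums of 23380 in WT and 18992 in KO, the highest of their groups. Skeletal muscle markers, which share the striated forms of some of these proteins, fell for 2 of 11 genes in WT tumors: Ckm, muscle creatine kinase, fell by 2.37 ± 0.36 from 76 to 107 in untreated WT colon to 12 to 33 in tumors. In KO colon at day 7 Ckm rose by 1.71 ± 0.39 and stood at 53 to 264.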

How the data were processed

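Biotin-labelled RNA of each of 36 colon samples was read on its own Affymetrix HT MG-430 PM array. The authors deposited linear intensity values, whole numbers for every probe set, and how background was corrected and probes were combined is not given in the sources used here. No batch or date appears in the labels, so none was modelled. An array has no read depth, and the number of arrays limits its precision.

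Of 45037 probe sets, 28898 had 1 gene symbol, 551 several and 15588 none, and only the first kind was kept. Intensities were taken as log2(intensity + 1), quantile normalized and reduced to the brightest probe set of each of 17097 genes. Groups came from the sample labels. A limma 3.58.1 model in R 4.3.3 fitted 8 group means over 36 arrays with an intensity trend, and 17 comparisons were each adjusted by Benjamini-Hochberg over all genes, with a threshold of 0.05. The model was tested on simulated data.

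The members, the marker lists, the comparisons and most alternatives were chosen with earlier results of these data known. By the naming rule all members could be named, per-array values were given for the central members and the extremes of each role, and other genes were named from the 4 smallest p of their list in each direction in WT tumors or by their correlation with the member mean. Myocd, Dmd, Actb, Actg1, Myh9 and Vip fell outside this rule and were chosen after their values were seen.

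A possible pairing of samples by replicate number was checked on residuals. All pairs exceeded a correlation of 0.1 in 2 comparisons only, WT day 7 with untreated WT (0.164 to 0.398) and the genotypes at day 15 (0.174 to 0.801). The labels state no pairing, so samples were treated as unpaired. Alternatives were another constant, other scalings, a filter on dim genes, all probe sets of a gene, no trend, array weights, only the groups compared, blocks for the replicate number or the title code, and leaving out arrays.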

Additional observations from a re-analysis of the deposited data

Results flagged for a closer look

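Within each group of 4 or 6 arrays, the array farthest from the rest was compared with its nearest neighbour by Dixon's criterion, for 30 genes and their mean. Of 248 such checks 36 were past the 95% value, or 14.5%, where chance gives about 1 in 20. Genes of 1 array are not independent. Values are normalized log2 intensities.

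WT tumor replicate 6 lay above the other 5 WT tumors for Actg2 (11.66), Cnn1 (11.33), Tpm1 (11.72), Tpm2 (11.74), Myh11 (10.45), Ppp1r12b (7.74), Jph2 (6.31), Synm (9.55), Synpo2 (8.93), Csrp1 (10.60), Pdlim3 (9.53), Hspb8 (8.06) and the mean of the list (9.09).

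KO tumor replicate 2 lay below the other 5 KO tumors for Acta2 (10.33), Cnn1 (6.73), Cald1 (9.29), Myl9 (7.98), Ppp1r14a (4.04), Kcnmb1 (3.17), Mrvi1 (4.61), Prkg1 (3.83), Cav1 (7.00), Synpo2 (5.02), Pgm5 (4.04), Pdlim3 (5.93) and the mean of the list (6.48). KO tumor replicate 1 was the highest KO tumor for Pcp4 (7.75).

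The array labelled KO day 7 replicate 1 was the lowest of its group for Acta2 (12.48), Actg2 (11.31), Tpm1 (10.97) and Pdlim3 (9.56). KO day 15 replicate 4 was the highest for Jph2 (6.02). Among untreated arrays, KO replicate 4 was the lowest for Lmod1 (5.43), KO replicate 3 for Casq2 (5.89), KO replicate 2 for Flna (9.20) and WT replicate 3 for Flna (9.56). The causes were not tested.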

How the results depend on the processing

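No called gene changed direction in any setting run. The count of lower genes was 23 to 28 in WT tumors and 16 to 25 in KO tumors over the settings, and 25 to 27 and 14 to 23 without single arrays. Of the 26 calls in WT tumors, 5 were lost in at least 1 setting (Acta2, Actg2, Cnn1, Kcnmb1 and Prkg1), and of the 18 in KO tumors, 7. The causes of the changes below were not tested. For KO day 7 against untreated, the 7 genes became 3 with centring, 3 without normalization, 22 with only the groups compared, 4 with the replicate block, 25 with array weights, 2 and 4 with the letter and the number of the title code as a block, and 13 without the 7 Krt5 arrays, with 0 to 12 without single arrays. For WT day 15 against untreated, the 2 genes became 4 without dim genes, 6 with the mean of all probe sets, 6 with only the groups compared, 9 with weights, 0 with the letter block, 4 without the Krt5 arrays and 4 without replicate 4 of both genotypes at day 15, with 2 to 3 without single arrays. For WT tumors against day 15, the 7 genes became 12 without dim genes, 13 with the replicate block, 19 with weights, 12 with the letter and 1 with the number as a block, 18 without the Krt5 arrays and 4 without replicate 4 of both genotypes at day 15, with 2 to 17 without single arrays. For KO tumors against day 15, the 1 gene became 0 with the mean of probe sets, 0 with only the groups compared, 7 with the replicate block, 2 with weights, 0 with the letter block and 2 without replicate 4 of both genotypes, with 0 to 7 without single arrays. For WT day 15 against day 7, the 3 genes became 0 with only the groups compared, 16 with weights, 0 with the letter block and 0 without the Krt5 arrays, with 0 to 3 without single arrays. KO day 15 against day 7 gave 13 to 24 without single arrays. Counts of 0 became 1 for KO day 15 against untreated with only the groups compared and 1 without the Krt5 arrays, 10 for untreated KO against WT with only the groups compared, and 12 for KO against WT at day 7 with weights, 2 without the Krt5 arrays and 0 to 1 without single arrays. The genotype difference in the change to day 7 became 1 with only the groups compared, 14 with weights and 4 without the Krt5 arrays, with 0 to 2 without single arrays. Array weights raised the calls over all genes too, to 14.7% for that difference, 20.7% for KO against WT at day 7 and 28.4% for KO day 7 against untreated, and 18.7% of all genes passed in the last with only the groups compared. In the 2 comparisons whose numbers correlated in every pair, the replicate block left 0 genes, as without it. The share of higher genes among all called moved by over 10 points with the scaling (quantile, centred, none) for KO day 15 against day 7 (49.4, 66.5 and 64.5%), WT day 15 against day 7 (62.2, 75.8 and 75.6%), KO day 15 against untreated (60.4, 70.3 and 76%), KO tumors against day 15 (58.4, 56.9 and 44%) and KO against WT at day 15 (76.3, 91.8 and 90.7%). Counts of the further contraction genes without the KO day 7 arrays in doubt were added after seeing the data. Kcnmb1, the dimmest member with a mean intensity of 21.8, came near the array medians, and its log2 difference in WT tumors was -0.62 with an added constant of 16 in place of -1.05.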
